A study of Mus musculus with 6 samples.

Results

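Genes for the extracellular and receptor side of Wnt signaling, with its nuclear readers, were followed through single-cell RNA-Seq of lower abdominal muscle (LAM) from 3 WT and 3 Aromhum (Arom) male mice. The members were all rows whose gene name is that of a Wnt ligand, a Frizzled (Fzd) receptor, Lrp5 or Lrp6, a secreted Frizzled-related protein (Sfrp1 to Sfrp5 or Frzb), a Dickkopf (Dkk) protein or Wif1, an R-spondin (Rspo), Lgr4, Lgr5 or Lgr6, an Axin, Lef1 or a Tcf7 family factor. They numbered 44 of 16494 genes: 12 Wnt ligands, 12 receptors, 5 Sfrp antagonists, 3 Dkk or Wif1 genes, 6 Rspo or Lgr genes and 6 Axin or Tcf genes. All mice were FVB/N males of 9 to 10 weeks. The Arom mice carry the human aromatase gene *CYP19A1* with its own regulatory region and develop scrotal hernias, and the WT mice were littermates without it. The transgene is driven by human sequence and not by a promoter chosen for 1 cell type, and the muscle was dissociated with enzymes and filtered, so the cells are those that came through as single cells. Human *CYP19A1* had 0 UMIs (unique molecular identifiers, the molecules counted) in each WT mouse and 770, 797 and 787 UMIs in the Arom mice.

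Wnt ligands are secreted proteins that bind Fzd receptors together with the coreceptors Lrp5 and Lrp6, which leads to stabilization of β-catenin and to transcription through Tcf and Lef factors. Sfrp proteins and Wif1 bind the ligands outside the cell, most Dkk proteins block the coreceptors, and R-spondins acting through Lgr receptors keep Fzd receptors at the cell surface. In skeletal muscle the pathway is known for its parts in stem cell behavior, in repair and in fibrosis.

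The table held 63647 barcodes, 7905 to 13764 per mouse, and 64958237 to 111826460 UMIs per mouse. Cell types were named from marker genes that include no member. In each of the 10 types all of the markers were highest in the type they name, which naming by the same markers makes likely. A name stands for cells like that type. Fibroblast-like cells made up 34.4%, 22.6% and 20.3% of barcodes in WT and 40.5%, 48.9% and 38.6% in Arom mice. Mitochondrial UMIs were over 5% in 38.0%, 68.2% and 40.1% of WT and 30.4%, 30.9% and 27.6% of Arom barcodes, so WT 2 stood apart and every WT mouse lay above every Arom mouse. Within the limits on genes, UMIs and mitochondrial UMIs stated in the study's methods were 3861, 1532 and 2426 barcodes in WT and 3851, 4932 and 2250 in Arom mice. Calls lost among these barcodes are given beside the results or only as counts in the last section. A total of 470 barcode sequences occurred in 2 libraries and 1 in 3. In each library, most genes found in fewer than 20 to 24 barcodes were listed at 0, so a listed 0 is not an absence. In WT 2, 204 genes were still listed in fewer barcodes than its limit of 22, beside 4 to 18 genes in the other libraries. The highest total that such a gene would usually have was taken as the 95th percentile of the genes just above that limit, 26 to 41 UMIs per library. *Lgr6*, *Rspo4* and *Wnt7b* were listed at 0 in every WT mouse, *Fzd10* in WT 3, and *Lef1* in WT 1, Arom 1 and Arom 3.

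Promoters are shown for members whose values are given below, read from RefSeq sequences on GRCm38.p6 from 250 bases before to 50 bases after the gene start. *Wnt4* was higher in Arom fibroblast-like cells, and *Lgr6* was called higher there on listed zeros. *Tcf7* and *Wnt11* are shown with the start that holds a searched motif. Capitals mark the motif. Each is written 5′ to 3′ on the strand of its gene.
Wnt4, chr4:137277385-137277684, plus strand: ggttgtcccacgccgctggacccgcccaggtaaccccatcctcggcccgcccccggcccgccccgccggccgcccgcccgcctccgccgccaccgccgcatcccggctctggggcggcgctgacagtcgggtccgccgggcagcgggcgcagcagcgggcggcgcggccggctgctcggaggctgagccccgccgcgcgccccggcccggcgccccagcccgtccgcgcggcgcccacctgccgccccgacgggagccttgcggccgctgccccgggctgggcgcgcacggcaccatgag
Lgr6, chr1:135105227-135105526, minus strand: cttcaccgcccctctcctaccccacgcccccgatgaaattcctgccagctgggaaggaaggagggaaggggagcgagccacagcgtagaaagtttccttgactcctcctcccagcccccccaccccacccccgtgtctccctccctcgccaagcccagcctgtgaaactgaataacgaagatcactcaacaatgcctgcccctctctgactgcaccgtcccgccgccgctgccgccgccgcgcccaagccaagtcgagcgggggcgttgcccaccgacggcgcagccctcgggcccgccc
Tcf7, chr11:52282546-52282845, minus strand: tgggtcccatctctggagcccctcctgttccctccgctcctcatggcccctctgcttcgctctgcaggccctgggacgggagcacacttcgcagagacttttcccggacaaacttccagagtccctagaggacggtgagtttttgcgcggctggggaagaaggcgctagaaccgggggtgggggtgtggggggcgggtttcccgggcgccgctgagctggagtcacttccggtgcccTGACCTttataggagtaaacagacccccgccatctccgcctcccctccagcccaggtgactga
Wnt11, chr7:98834862-98835161, plus strand: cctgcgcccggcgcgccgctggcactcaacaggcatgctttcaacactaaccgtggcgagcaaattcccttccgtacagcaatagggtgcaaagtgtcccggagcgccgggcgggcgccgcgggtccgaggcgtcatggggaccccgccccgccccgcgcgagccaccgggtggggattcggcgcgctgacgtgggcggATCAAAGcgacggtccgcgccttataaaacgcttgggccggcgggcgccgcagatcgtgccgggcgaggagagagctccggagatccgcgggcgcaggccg

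The table of promoters covered 29 of the 44 members, with 37 starts. Motifs were searched on both strands. The palindromic estrogen response element, GGTCA and TGACC with 3 bases between, was in 23 of 32851 promoters (0.07%) and in 0 of the 37. A single arm of that element, AGGTCA, whose last letters overlap it, was in 16.3% of all promoters and in 3 of the 37, those of *Tcf7* at position -13, *Frzb* and *Wnt16*. The Tcf and Lef core CTTTGAT was in 3.73% of all promoters and in 2 of the 37, those of *Wnt11* at position -51 and *Wnt5b*. These matches describe the letters in the window only.

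Levels are given in CPM, the UMIs of a gene scaled to 1000000 UMIs of a cell type in a mouse. The assay counts 1 tag per transcript end, so CPM is not divided by length. Of the 44 members, 14 had the highest mean level in fibroblast-like cells, 8 in mesothelial cells, 6 in glial cells, 5 in lymphatic endothelial cells, 3 in smooth muscle cells and pericytes, 2 each in muscle stem cells and myoblasts (MuSC), endothelial cells and T or NK cells, and 1 each in macrophages and myonuclei. The 14 were *Wnt2*, *Wnt10b*, *Wnt16*, *Lrp6*, *Sfrp1*, *Sfrp2*, *Sfrp4*, *Frzb*, *Dkk2*, *Dkk3*, *Wif1*, *Lgr5*, *Lgr6* and *Rspo4*. Mesothelial cells had the highest level of *Wnt2b*, *Wnt5a*, *Wnt7b*, *Wnt9a*, *Fzd2*, *Fzd10*, *Rspo1* and *Axin2*, and glial cells of *Wnt6*, *Wnt10a*, *Fzd1*, *Fzd3*, *Sfrp5* and *Lgr4*. Lymphatic endothelial cells led for *Fzd6*, *Lrp5*, *Rspo3*, *Tcf7l1* and *Tcf7l2*, smooth muscle cells and pericytes for *Wnt5b*, *Fzd7* and *Fzd8*, MuSC for *Wnt4* and *Axin1*, and endothelial cells for *Fzd4* and *Fzd5*. *Lef1* and *Tcf7* were highest in T or NK cells, *Wnt11* in the cells counted as macrophages and *Fzd9* in myonuclei. For most members the mice of the leading type overlapped those of the next type. The exceptions were *Wnt2b*, *Wnt6*, *Wnt10b*, *Fzd1*, *Fzd3*, *Fzd6*, *Rspo1*, *Dkk2*, *Sfrp4*, *Sfrp5* and *Tcf7*. Some leads were near ties, such as *Tcf7l2* at 64.4 CPM beside 61.4 CPM in endothelial cells. *Dkk3* was at 29.9 CPM beside 28.4 CPM in T or NK cells. Others were low, with *Rspo4* at 0.488 CPM and *Wnt7b* at 1.49 CPM in their leading types.

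**Figure D1:**
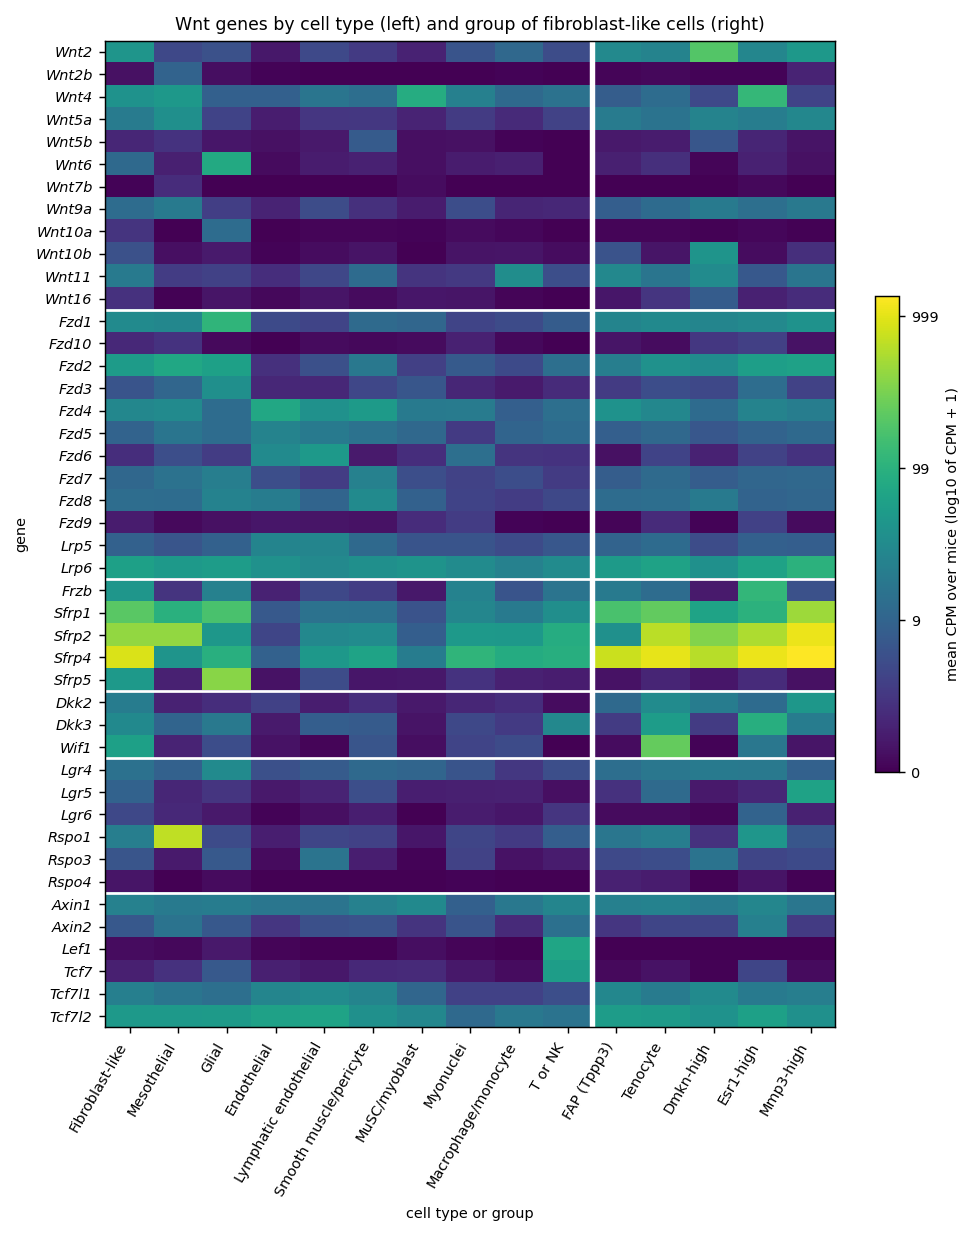
Mean CPM over mice of the 44 members (rows, by role) in 10 cell types and, right of the white line, in 5 groups of fibroblast-like cells (columns). Color is log10 of CPM + 1. *Sfrp4* is brightest in fibroblast-like cells at 909 CPM and *Rspo1* in mesothelial cells at 685 CPM.

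Among the ligands, *Wnt2* averaged 41.7 CPM and *Wnt4*, a ligand with known roles in the kidney and the female reproductive tract, 38.1 CPM in fibroblast-like cells. *Wnt2* measured 40.0, 27.8 and 21.2 CPM in WT and 63.3, 57.8 and 39.9 CPM in Arom mice. The genotypes overlapped narrowly for *Wnt2*, since Arom 3 fell just below WT 1. *Wnt4* measured 13.7, 17.3 and 10.9 CPM in WT and 64.2, 65.9 and 56.8 CPM in Arom fibroblast-like cells, and here the genotypes lay far apart. *Wnt6* was highest in glial cells, with 76.2, 58.7 and 91.4 CPM in WT and 94.0, 60.2 and 94.0 CPM in Arom mice. The mice of both genotypes overlapped there, and all 6 lay above the highest fibroblast-like value of *Wnt6*, 26.2 CPM. Over all mice 1 glial cluster of 292 cells, led by *Grp*, *Tenm2* and *Crabp2*, held *Wnt6* at 214.8 CPM and another of 874 cells at 48.5 CPM, while a cluster counted as fibroblast-like and led by *Lypd2* held it at 290.2 CPM, with 55.4% of all *Wnt6* UMIs. *Wnt4* averaged 86.0 CPM in MuSC, but WT 2 alone reached 282 CPM while the other 5 mice lay between 35.4 and 83.4 CPM. The main MuSC cluster, of 2882 cells, had *Prm1*, *Prm2*, *Tnp1* and *Tnp2*, which are not MuSC markers, among its top genes beside the markers *Asb5* and *Myod1*. *Wnt11* averaged 33.1 CPM in the cells counted as macrophages and 18.6 CPM in fibroblast-like cells, and the mice of the 2 types overlapped. Of the *Wnt11* UMIs in the former, 488 came from 1 cluster of 1065 cells, at 51.3 CPM, led by *Lyz1*, *Fcrls* and the antigen presentation genes *H2-Ab1*, *H2-Aa* and *Cd74*, with the migration receptor gene *Ccr7* also among its top genes. Among the marker lists that cluster scored highest for B cells, on 1 marker, so its place among macrophages is uncertain. *Wnt7b* had 90 of its UMIs in mesothelial cells, with 20, 15 and 55 UMIs in the Arom mice. Some mean levels moved among the cells within the limits stated in the study's methods, 200 to 2500 genes, 1000 UMIs or more and up to 5% mitochondrial UMIs. In fibroblast-like cells *Wnt4* was then at 8.06, *Fzd2* at 30.8, *Dkk3* at 18.9, *Rspo1* at 14.5, *Tcf7l2* at 40.1 and *Axin1* at 19.7 CPM. In glial cells *Wnt6* was at 112, *Fzd1* at 75.2 and *Sfrp5* at 244 CPM.

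Receptors were also spread over several cell types. The coreceptor *Lrp6* averaged 58.7 CPM in fibroblast-like cells and measured 71.8, 59.3 and 57.3 CPM in WT and 53.1, 58.5 and 52.0 CPM in Arom mice. WT 1 was the highest mouse for *Lrp6*, and the genotypes overlapped. *Fzd2* measured 43.2, 35.7 and 55.0 CPM in WT and 62.0, 69.2 and 40.6 CPM in Arom fibroblast-like cells, with overlap. Its mean of 50.9 CPM there stood beside 72.8 CPM in mesothelial cells, and the mice of both types overlapped. *Fzd1* stood out in glial cells at 117, 90.2 and 111 CPM in WT and 100, 137 and 105 CPM in Arom mice. All 6 glial values of *Fzd1* exceeded every fibroblast-like value, which reached 36.1 CPM. *Fzd6* was highest in lymphatic endothelial cells, with 43.5, 50.7 and 38.8 CPM in WT and 37.8, 66.1 and 44.4 CPM in Arom mice, and every mouse exceeded its endothelial range, which ended at 35.5 CPM. *Fzd4*, a receptor known for its part in retinal vessels, was highest in endothelial cells at 75.2 CPM, and its range overlapped that of smooth muscle cells. The endothelial cells include a cluster of 2770 cells led by *Rgs5*, a marker of smooth muscle cells and pericytes. It scored 1.679 for endothelial and 1.17 for smooth muscle and pericyte markers, and held 16.5% of *Fzd4* UMIs. At clustering resolutions of 0.4 and 1.2 a cluster led by *Rgs5* was unnamed.

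Of all members, 3 Sfrp antagonists had the highest levels in fibroblast-like cells, with means of 909 CPM for *Sfrp4*, 421 CPM for *Sfrp2* and 215 CPM for *Sfrp1*. The other antagonists of that role, *Sfrp5* (48.3 CPM) and *Frzb* (43.1 CPM), were below *Wif1* (60.1 CPM) and *Lrp6* (58.7 CPM). *Sfrp4* measured 747, 739 and 436 CPM in WT and 1301, 1365 and 865 CPM in Arom mice. Every Arom mouse was above every WT mouse, and no mouse of another cell type reached the lowest fibroblast-like value. *Sfrp2* measured 534, 244 and 276 CPM in WT and 592, 712 and 166 CPM in Arom mice. Arom 3 was the lowest of the 6 mice, and the range overlapped that of mesothelial cells, whose mean was 417 CPM. *Sfrp5* was highest in glial cells, with 407, 346 and 408 CPM in WT and 361, 354 and 415 CPM in Arom mice. The genotypes overlapped for *Sfrp5*, and the highest fibroblast-like value was 120 CPM. *Wif1* measured 38.3, 106 and 148 CPM in WT and 8.90, 4.69 and 55.2 CPM in Arom fibroblast-like cells. *Dkk3*, a member of the Dkk family by sequence, measured 25.6, 35.9 and 36.2 CPM in WT and 27.7, 33.0 and 21.1 CPM in Arom mice. Arom 3 overlapped WT for *Wif1*, and the genotypes of *Dkk3* overlapped throughout.

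Among the R-spondins, *Rspo1* was highest in mesothelial cells, at 693, 914 and 833 CPM in WT and 523, 370 and 777 CPM in Arom mice. The main cluster of these cells scored 3.172 for mesothelial and 3.189 for epithelial markers. The fibroblast-like level of *Rspo1* was 20.8 CPM, 32.9 times lower, and no mouse overlapped. *Lgr4*, an R-spondin receptor, measured 14.9, 22.5 and 14.6 CPM in WT and 8.62, 11.2 and 11.2 CPM in Arom fibroblast-like cells, with every Arom mouse lower. Of the nuclear factors, *Tcf7l2* measured 47.1, 51.2 and 48.4 CPM in WT and 43.5, 44.2 and 52.3 CPM in Arom fibroblast-like cells. *Axin1*, a scaffold of the complex that degrades β-catenin, measured 24.3, 22.1 and 20.1 CPM in WT and 22.5, 24.1 and 25.6 CPM in Arom mice. Both genes overlapped between genotypes. *Lef1* averaged 68.9 CPM in T or NK cells, where WT 2 had 35, WT 3 14 and Arom 2 29 UMIs, and the libraries WT 1, Arom 1 and Arom 3 list it at 0.

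The 5 named groups of fibroblast-like cells held different members at their highest levels. The Esr1-high group, named for the estrogen receptor gene, was highest for 16 members, the Mmp3-high group for 11, the Dmkn-high group for 10, the tenocyte group for 5 and the fibro-adipogenic progenitor (FAP) group for 2. Some of these leads were near 0, such as *Lef1* at 0.0121, *Wnt10a* at 0.124 and *Wnt7b* at 0.18 CPM in the Esr1-high group. Others were near ties, with ratios to the next group of 1.006 for *Fzd6*, 1.015 for *Fzd5* and 1.021 for *Wnt9a*. Mmp3-high means include WT 2, which had 16 cells. *Wnt4* averaged 121 CPM in the Esr1-high group, 10.1 times the next group, and *Frzb* 116 CPM, 6.23 times the next. *Axin2*, a widely used readout of β-catenin signaling, averaged 22.0 CPM there, 6.16 times the next group. *Wnt2* averaged 196 CPM and *Wnt10b* 40.5 CPM in the Dmkn-high group, and *Wif1* 244 CPM in the tenocyte group, 14.98 times the next. *Lgr5* averaged 62.3 CPM and *Sfrp2* 1098 CPM over mice in the Mmp3-high group. With the cells of all mice pooled, its cluster of 4015 cells held *Lgr5* at 25.6 CPM and *Sfrp2* at 1057 CPM. These groups were clustered from the other genes of the same cells, so the levels are a description.

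Fibroblast-like cells were compared between genotypes after adding up the UMIs of a mouse, by the quasi-likelihood test of edgeR, with p-values adjusted by Benjamini and Hochberg's method over the whole table. Values are CPM after TMM scaling, called normalized CPM here. Of 42 members tested, 11 passed the adjusted threshold of 0.05 (26.2%), beside 13.3% of all 13978 genes. Lower in Arom were 7 members (16.7%, beside 6.01% of all genes) and higher were 4 (9.52%, beside 7.3%). The median log2 fold change was -0.26 over the members and -0.00 over all genes. *Lef1* and *Wnt7b* were too low to test. With the genes listed at 0 in a library left out, 9 members passed. Leaving out 1 mouse changed these counts: 3 members passed without WT 1, 1 without WT 2, 1 without WT 3, 0 without Arom 1, 1 without Arom 2 and 25 without Arom 3. The number of all genes that passed moved in the same fits to 164, 8, 6, 2, 21 and 4175.

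Among the ligands, *Wnt4* measured 14.4, 16.9 and 10.7 normalized CPM in WT and 66.0, 66.8 and 54.1 in Arom fibroblast-like cells. Every Arom mouse lay far above every WT mouse. The log2 fold change of *Wnt4* was 2.15 ± 0.18 (SE, adjusted p = 0.00966), and it passed in 5 of 6 fits with a mouse left out, with an adjusted p of 0.0709 without Arom 1. Among the cells within the stated limits its log2 fold change was 0.60 (adjusted p = 0.387). The same limits without the upper limit on genes gave 2.15 (adjusted p = 0.00832). With all the limits the Esr1-high group kept 48, 4 and 8 cells in WT and 63, 96 and 24 in Arom mice. *Wnt11*, a ligand of the β-catenin independent branch, measured 24.7, 26.5 and 27.0 in WT and 10.9, 7.07 and 15.4 in Arom mice. All 3 Arom mice were lower, with a log2 fold change of -1.23 ± 0.26 (SE, adjusted p = 0.0315). *Wnt6* measured 13.1, 11.1 and 25.8 in WT and 4.70, 2.44 and 7.37 in Arom mice. The groups of *Wnt6* did not overlap, and WT 3 was the highest (log2 fold change -1.78 ± 0.46, SE, adjusted p = 0.0472). The *Wnt6* call was lost at clustering resolutions of 0.4 (-1.30, adjusted p = 0.0529) and 1.2 (-1.11, adjusted p = 0.0595), with no filter on low counts (adjusted p = 0.0566) and within the stated limits without the upper limit on genes (-1.44, adjusted p = 0.185), and with all stated limits the log2 fold change was 0.88 (adjusted p = 0.644).

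Most *Wnt6* in fibroblast-like cells came from 1 unnamed cluster led by *Lypd2*, *Apod*, *Hcn4*, *Cldn1* and *Itgb4*. That cluster held 83.8% to 94.5% of the fibroblast-like *Wnt6* UMIs in each mouse. It made up 4.12%, 6.71% and 12.3% of fibroblast-like cells in WT and 2.61%, 1.78% and 4.99% in Arom mice. Within the cluster *Wnt6* measured 410, 232 and 266 CPM in WT and 375, 283 and 256 CPM in Arom mice, and the genotypes overlapped. *Sfrp5* showed the same layout, at 1578, 1250 and 1289 CPM in WT and 1763, 1550 and 1416 CPM in Arom mice within the cluster. At resolution 0.8 the cluster was counted as fibroblast-like with a marker score of 0.573, where 0.5 was needed. At 0.4 the cluster led by *Lypd2* (926 cells) was not named fibroblast-like, nor was one of 527 cells led by it at 1.2. Whether the share of the *Lypd2* cluster accounts for the *Wnt6* difference was not tested.

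Both receptors that passed were lower. *Fzd7* measured 10.8, 14.5 and 15.6 normalized CPM in WT and 6.04, 6.35 and 7.92 in Arom mice (log2 fold change -1.01 ± 0.18, SE, adjusted p = 0.0235). *Fzd8* measured 14.998, 14.9 and 13.0 in WT and 8.96, 10.1 and 10.7 in Arom mice (log2 fold change -0.53 ± 0.11, SE, adjusted p = 0.0319). No mouse overlapped for either gene. With the replicate number as a block the *Fzd8* call was lost (adjusted p = 0.0522). *Fzd4* was at 26.5, 42.6 and 37.9 in WT and 15.9, 13.9 and 26.1 in Arom mice, and its adjusted p was 0.0623. Of the 8 Sfrp, Dkk and Wif1 genes, 0 passed edgeR's test. *Sfrp4* was at 784, 721 and 430 in WT and 1337, 1383 and 823 in Arom mice with no overlap (adjusted p = 0.0808), and *Frzb* spread widely, from 10.7 to 30.4 in WT and from 24.0 to 100 in Arom mice (adjusted p = 0.0855). *Sfrp5* was at 44.4, 53.7 and 119 in WT and 21.8, 12.2 and 36.9 in Arom mice (adjusted p = 0.0705). *Wif1* was at 40.2, 103 and 146 in WT and 9.15, 4.76 and 52.5 in Arom mice, with Arom 3 inside the WT range (adjusted p = 0.150). *Sfrp2* (0.47, adjusted p = 0.587) and *Sfrp1* (0.66, adjusted p = 0.210) had log2 fold changes within the spread between mice.

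Of the R-spondin genes, *Rspo3*, an R-spondin known for vessel growth, measured 6.25, 8.24 and 11.4 normalized CPM in WT and 2.48, 3.21 and 2.95 in Arom mice. Every Arom mouse was lower (log2 fold change -1.57 ± 0.24, SE, adjusted p = 0.0197). Within the stated limits the log2 fold change of *Rspo3* was -0.37 (adjusted p = 0.641), and without the upper limit on genes -1.30 (adjusted p = 0.0241). *Lgr4* measured 15.6, 22.0 and 14.4 in WT and 8.87, 11.3 and 10.7 in Arom mice, again without overlap (log2 fold change -0.75 ± 0.18, SE, adjusted p = 0.0417). The intestinal stem cell receptor *Lgr5* was at 27.3, 3.79 and 11.4 in WT and 2.796, 4.34 and 2.78 in Arom mice and did not pass (adjusted p = 0.0671). *Lgr6*, a stem cell receptor of skin, was listed at 0 in WT and measured 10.1, 10.9 and 2.07 in Arom mice. Over all barcodes *Lgr6* had 714, 861 and 127 UMIs in Arom mice, or 6.51, 7.70 and 1.37 CPM, and the limit could hide up to 0.394, 0.439 and 0.600 CPM in the WT libraries. With WT set at those ceilings over all barcodes, the Arom mean was 10.9 times the WT mean (adjusted p = 0.0223). In fibroblast-like cells the whole-library ceilings of 26, 32 and 39 UMIs in WT were set, as if every hidden UMI lay there. The log2 fold change of *Lgr6* was then 2.40 (adjusted p = 0.0559). *Rspo4* passed the test on its listed zeros only, and its Arom levels were 0.666, 0.393 and 0.712 CPM over all barcodes. With the same whole-library ceilings its fibroblast-like log2 fold change was -0.61 (adjusted p = 0.336).

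**Figure D2:**
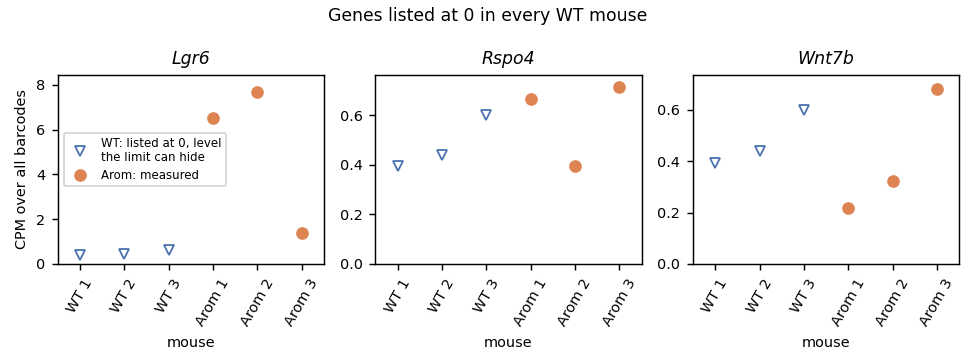
CPM over all barcodes for 3 genes listed at 0 in every WT mouse, by mouse. Open triangles give the level that the limit on genes can hide in a WT library, and filled circles the measured Arom level. *Lgr6* lies above all triangles in every Arom mouse, at 1.37 CPM or more, while *Rspo4* and *Wnt7b* overlap them.

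Among the nuclear factors, *Tcf7*, known from T cells, measured 0.401, 0.421 and 0.596 normalized CPM in WT and 1.21, 1.21 and 1.54 in Arom mice. Its levels were low, and the groups did not overlap (log2 fold change 1.51 ± 0.28, SE, adjusted p = 0.0250). *Tcf7l1*, mostly known as a repressor, measured 25.6, 24.2 and 25.5 in WT and 17.3, 16.1 and 21.4 in Arom mice (log2 fold change -0.46 ± 0.12, SE, adjusted p = 0.0496). The *Tcf7l1* call was lost with the replicate number as a block (adjusted p = 0.0508) and with no filter on low counts (adjusted p = 0.0617). *Axin2* was at 4.78, 5.51 and 5.25 in WT and 5.72, 10.8 and 6.08 in Arom mice, and did not pass (adjusted p = 0.188). Apart from *Wnt4*, each of the called members passed in only 1 or 2 of the 6 fits with a mouse left out: all of them without Arom 3, and *Fzd7* and *Rspo3* also without WT 1, with adjusted p-values up to 0.168 in the other fits. Within the stated limits *Fzd7* (-0.37, adjusted p = 0.439), *Fzd8* (-0.38, adjusted p = 0.403), *Lgr4* (-0.43, adjusted p = 0.384), *Wnt11* (-0.76, adjusted p = 0.192) and *Tcf7l1* (-0.19, adjusted p = 0.448) did not pass either. Each of these genes passed under the same limits without the upper limit on genes. *Fzd7* was then at -0.86 (adjusted p = 0.0294), *Fzd8* at -0.56 (0.0292) and *Lgr4* at -0.72 (0.0463). *Wnt11* was at -1.33 (0.026) and *Tcf7l1* at -0.53 (0.0348).

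**Figure D3:**
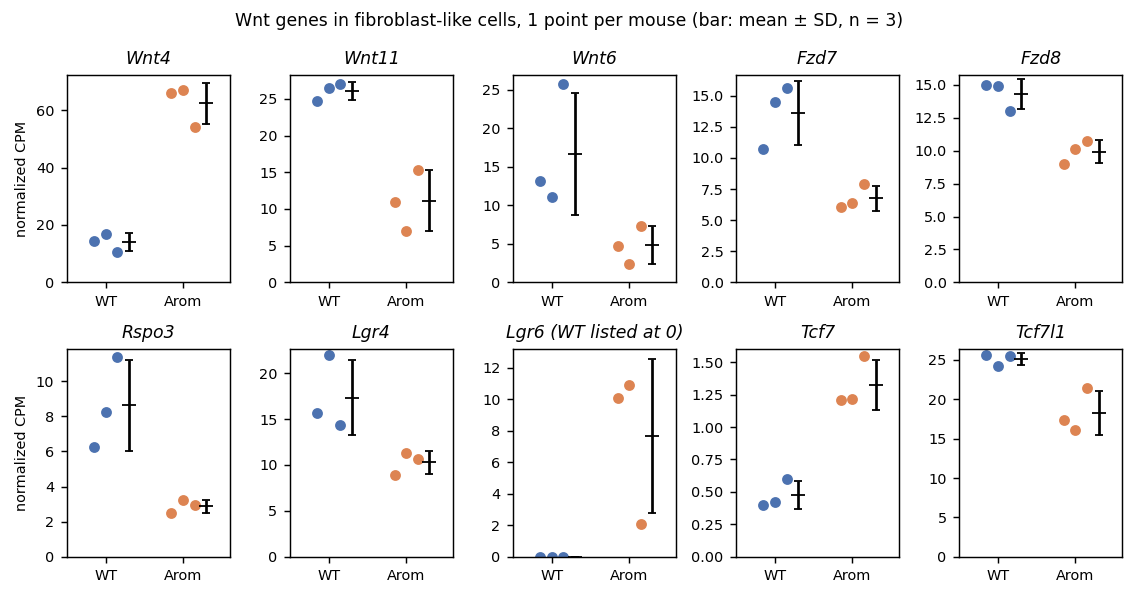
Normalized CPM of 10 of the 11 members past the threshold in fibroblast-like cells (*Rspo4* is not drawn), 1 point per mouse, with the mean ± SD of 3 mice as a bar. *Wnt4* lies between 54.1 and 66.8 in Arom mice, above all WT mice, and *Lgr6* is listed at 0 in WT.

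The Esr1-high group made up 9.64%, 4.67% and 6.04% of them in WT and 28.5%, 26.0% and 18.1% in Arom mice. The Mmp3-high group made up 16.8%, 0.655% and 3.18% in WT and 23.1%, 30.8% and 2.71% in Arom mice. The genotypes did not overlap for the first and overlapped for the second. With both groups left out, 6 members passed, with 630 of all genes beside 1861. *Wnt4* had a log2 fold change of -0.14 there (adjusted p = 0.669). Of the members called with all fibroblast-like cells, *Fzd7* (-0.76, adjusted p = 0.0476) and *Wnt11* (-0.87, adjusted p = 0.0343) still passed. *Rspo4* also did (adjusted p = 0.0204), on its listed zeros. The rest of the 6 had not passed with all fibroblast-like cells, and *Tcf7* and *Lgr6* gave no result. The other lower members lost their calls in that fit: *Rspo3* (-0.72, adjusted p = 0.147), *Wnt6* (-0.9987, adjusted p = 0.101), *Lgr4* (-0.47, adjusted p = 0.146), *Fzd8* (-0.34, adjusted p = 0.121) and *Tcf7l1* (-0.18, adjusted p = 0.248).

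Inside the Esr1-high group, 10 of 36 members passed (27.8%), beside 10.8% of the 11797 genes tested, 8 lower (beside 5.82% of genes) and 2 higher in Arom (beside 4.94%). Of the higher members, *Lgr6* passed on zeros listed in every WT mouse. The median log2 fold change was -0.42 over the members and -0.00 over all genes. Counts moved to 6 without WT 1, 4 without WT 2, 1 without WT 3, 1 without Arom 1 and 5 without Arom 2, and was 11 without Arom 3. The number of all genes that passed in the same fits was 623, 360, 241, 180, 327 and 1987, beside 1270 with all mice. *Wnt4* measured 65.3, 121 and 56.8 normalized CPM in WT and 153, 159 and 169 in Arom mice. All Arom mice were above WT 2, the highest WT mouse (log2 fold change 0.99 ± 0.26, SE, adjusted p = 0.0487). It passed in 1 of 6 fits with a mouse left out, the fit without WT 2, and reached an adjusted p of 0.136 in the others.

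*Wif1* and *Dkk3* fell in this group. *Wif1* measured 7.15, 63.1 and 23.7 normalized CPM in WT and 1.44, 0.399 and 0.959 in Arom mice (log2 fold change -4.97 ± 0.81, SE, adjusted p = 0.0132). WT varied widely for *Wif1*, but no Arom mouse came near the lowest WT mouse. The cluster of the tenocyte group held 91.6% of all *Wif1* UMIs. The tenocyte group made up 22.4%, 36.6% and 33.6% of fibroblast-like cells in WT and 8.20%, 5.35% and 20.8% in Arom mice. The Esr1-high sums came from 337, 114 and 97 cells in WT, and the part of tenocyte RNA in the *Wif1* result was not tested. *Dkk3* measured 88.3, 189 and 151 in WT and 36.3, 46.1 and 35.6 in Arom mice (log2 fold change -1.84 ± 0.27, SE, adjusted p = 0.00931). Both genes passed in 4 of 6 fits with a mouse left out, and missed without WT 3 or Arom 1 with adjusted p-values up to 0.0549 for *Wif1* and 0.0547 for *Dkk3*.

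*Rspo3* measured 6.66, 7.63 and 5.52 normalized CPM in WT and 0.233, 0.689 and 0.822 in Arom cells of the group, a clear separation. Its log2 fold change was -3.55 ± 0.46 (SE, adjusted p = 0.00681), and it passed in all 6 fits with a mouse left out, with adjusted p-values from 0.00231 to 0.0369. *Lgr4* was at 16.8, 38.1 and 20.5 in WT and 8.75, 11.2 and 8.22 in Arom mice (log2 fold change -1.36, adjusted p = 0.0303). Of the receptors, *Fzd4* was at 34.5, 33.3 and 37.9 in WT and 13.1, 10.6 and 18.5 in Arom mice (log2 fold change -1.33, adjusted p = 0.0149). *Fzd7* was at 12.6, 17.3 and 11.8 in WT and 5.37, 4.60 and 7.40 in Arom mice (log2 fold change -1.26, adjusted p = 0.0245). *Fzd9* was low throughout, at 1.97, 6.24 and 8.68 in WT and 0.506, 0.507 and 0.480 in Arom mice (log2 fold change -3.23, adjusted p = 0.0165). None of these 4 genes overlapped between genotypes. *Tcf7l2* fell from 70.8, 65.2 and 72.6 in WT to 50.4, 47.4 and 54.1 in Arom mice (log2 fold change -0.46, adjusted p = 0.0497), a call that was lost with DESeq2's size factors (adjusted p = 0.051), with no filter on low counts (0.0921) and with the replicate block (0.0599). Within the stated limits without the upper limit on genes, *Wnt4* (0.85, adjusted p = 0.103), *Fzd7* (-0.84, adjusted p = 0.105) and *Lgr4* (-0.97, adjusted p = 0.0515) missed the threshold. *Lgr6* was listed at 0 in WT and measured 22.4, 24.98 and 6.92 in Arom mice, so its call rests on listed zeros. The limit on genes could hide 26, 32 and 39 UMIs of it in the WT libraries, while the group held 337, 114 and 97 WT cells. Without Arom 1 or WT 3, *Lgr4*, *Fzd4*, *Fzd7*, *Fzd9*, *Tcf7l2* and *Lgr6* all missed the threshold, with adjusted p-values up to 0.156. They missed it without WT 2 as well, where only *Wnt4*, *Wif1*, *Dkk3* and *Rspo3* passed.

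**Figure D4:**
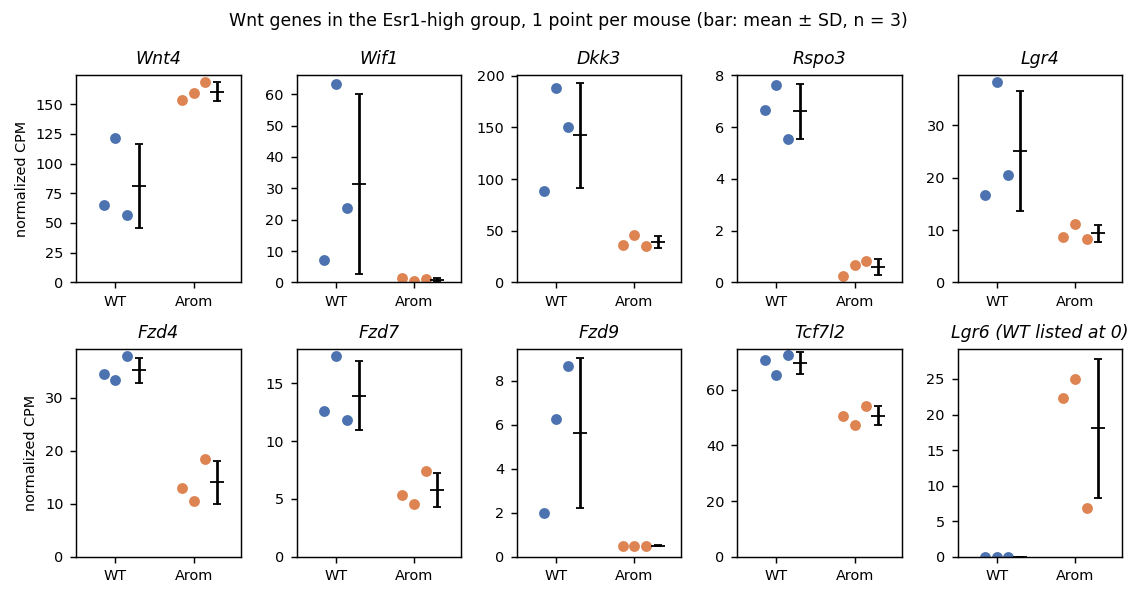
Normalized CPM of the 10 members past the threshold in the Esr1-high group, 1 point per mouse, with the mean ± SD of 3 mice as a bar. *Rspo3* is at 0.822 or less in every Arom mouse and at 5.52 or more in every WT mouse.

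In the FAP group, 5 of 30 members passed (16.7%), beside 4.77% of 11687 genes. Higher were 3, beside 2.48% of genes, and lower 2, beside 2.29%. *Wnt11* measured 37.6, 34.1 and 38.7 normalized CPM in WT and 20.6, 14.3 and 22.1 in Arom mice, with no overlap (log2 fold change -0.93, adjusted p = 0.0118), and passed in all 6 fits with a mouse left out. *Sfrp4* was at 564, 485 and 282 in WT and 1240, 1230 and 773 in Arom mice (log2 fold change 1.28, adjusted p = 0.0250). *Wnt2* was at 26.5, 22.0 and 18.0 in WT and 39.7, 31.6 and 35.6 in Arom mice (log2 fold change 0.68, adjusted p = 0.0330). Both were higher in every Arom mouse. Within the stated limits *Wnt11* (-0.75, adjusted p = 0.174), *Sfrp4* (1.18, adjusted p = 0.162) and *Wnt2* (0.78, adjusted p = 0.199) missed the threshold. *Fzd7* was at 7.92, 10.3 and 9.72 in WT and 5.92, 5.02 and 6.17 in Arom mice (log2 fold change -0.69, adjusted p = 0.0453; 0.0612 with DESeq2, 0.0931 at a resolution of 1.2 and 0.0601 within the stated limits without the upper limit on genes), and *Rspo4* passed on its listed zeros. The count was 3 without WT 2, 2 without Arom 1, 2 without Arom 2 and 8 without Arom 3, with 105, 153, 127 and 852 of all genes in these fits beside 558 with all mice.

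*Wnt11* also fell in the tenocyte group, where 2 of 32 members passed (6.25%), beside 3.48% of 11036 genes. Both were lower, beside 1.69% of genes lower and 1.79% higher. It measured 15.9, 21.9 and 22.2 normalized CPM in WT and 11.0, 10.1 and 11.6 in Arom mice (log2 fold change -0.86, adjusted p = 0.0358). *Rspo3* was at 4.12, 7.90 and 7.54 in WT and 2.14, 2.62 and 2.63 in Arom mice (log2 fold change -1.39, adjusted p = 0.0488). Neither gene overlapped between genotypes. The group scored 2.098 for tenocyte and 1.48 for tenocyte progenitor markers, so its name covers cells like both. At resolutions of 0.4 and 1.2 *Wnt11* was at -0.51 (adjusted p = 0.421) and -0.45 (adjusted p = 0.476). The count was 0 without WT 2, WT 3, Arom 1 or Arom 2, and 4 without Arom 3, with 10, 51, 111, 55 and 623 of all genes in these fits beside 384 with all mice.

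In the Dmkn-high group, 3 of 25 members passed, beside 2.28% of 9323 genes. Lower were 2, beside 0.729% of genes, and higher was 1, beside 1.56%. *Wnt5a*, a ligand of the β-catenin independent branch, measured 33.6, 57.9 and 27.7 normalized CPM in WT and 7.18, 7.03 and 12.7 in Arom mice (log2 fold change -2.20, adjusted p = 0.0135). *Wnt11* was at 44.8, 41.5 and 47.4 in WT and 13.1, 10.8 and 28.2 in Arom mice (log2 fold change -1.46, adjusted p = 0.0449). *Sfrp4* was at 492, 367 and 393 in WT and 989, 952 and 639 in Arom mice (log2 fold change 1.04, adjusted p = 0.0312). The genotypes did not overlap for any of them, but the count was 0 without any 1 of WT 1, WT 2, WT 3, Arom 1 or Arom 2, and 10 without Arom 3. All genes past the threshold in these fits numbered 5, 23, 1, 29, 30 and 1029, beside 213 with all mice. At a resolution of 0.4 *Wnt11* (-1.24, adjusted p = 0.113) and *Sfrp4* (0.92, adjusted p = 0.0808) missed the threshold. The Mmp3-high group held 16 cells in WT 2 and was not tested.

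In endothelial cells 1 of 30 members passed (3.33%), beside 7.7% of 12888 genes, of which 4.73% were higher and 2.98% lower. *Sfrp4* measured 4.82, 5.45 and 3.16 normalized CPM in WT and 12.5, 12.7 and 12.2 in Arom mice. Every Arom mouse was higher (log2 fold change 1.49 ± 0.20, SE, adjusted p = 0.00821), and it passed in all 6 fits with a mouse left out. In fibroblast-like cells *Sfrp4* did not pass (log2 fold change 0.87, adjusted p = 0.0808). *Sfrp4* UMIs per 1000 UMIs of *Dcn*, a fibroblast gene, were 16.4, 37.1 and 16.9 in WT and 68.1, 70.5 and 51.9 in Arom endothelial cells, beside 23.1, 26.7 and 15.9 in WT and 81.3, 87.6 and 45.2 in Arom fibroblast-like cells. *Dcn* itself was at 32307, 27697 and 27357 CPM in WT and 16006, 15584 and 19118 CPM in Arom fibroblast-like cells, and at 289.3, 148.4 and 187.2 CPM in WT and 181.5, 184.8 and 232.1 CPM in Arom endothelial cells, so the ratio in fibroblast-like cells also carries the lower *Dcn*. The part of free fibroblast RNA in this result was not tested. With the replicate number as a block, 5 members passed beside 17.9% of all genes: *Sfrp4* (1.52), *Fzd6* (0.47), *Fzd5* (-0.34), *Fzd8* (-0.41) and *Tcf7l2* (-0.31, log2 fold changes). The count was 2 without WT 1 and 2 without WT 3, with 692 and 583 of all genes beside 993 with all mice.

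No member passed in the main fits of the 5 other types tested. The replicate block gave calls in mesothelial cells, MuSC and glial cells, which are counted in the last section. Lymphatic endothelial cells, T or NK cells and myonuclei were not tested between genotypes. Of 20 members tested in smooth muscle cells and pericytes, 0 passed edgeR's test beside 0.81% of genes (0.568% higher and 0.242% lower), 4 had an unadjusted p under 0.05, and DESeq2 called 0. In mesothelial cells 0 of 29 passed beside 0.395% of genes (0.343% higher and 0.0515% lower), 7 had an unadjusted p under 0.05, and DESeq2 called 4. In MuSC 0 of 14 passed beside 2.47% of genes (1.17% higher and 1.31% lower), 2 had an unadjusted p under 0.05, and DESeq2 called 0. In macrophages 0 of 16 passed beside 0% of genes, 2 had an unadjusted p under 0.05, and DESeq2 called 0, while the block on replicate number gave 0 members and 80 genes. In glial cells 0 of 26 passed beside 0.521% of genes (0.344% higher and 0.177% lower), 4 had an unadjusted p under 0.05, and DESeq2 called 0. Without Arom 3 the counts were 1 in smooth muscle cells, 8 in mesothelial cells, 1 in MuSC, 2 in macrophages and 1 in glial cells, and without WT 1 it was 2 in MuSC. The number of all genes that passed without Arom 3 was 834 in smooth muscle cells (beside 77 with all mice), 1436 in mesothelial cells (46), 1078 in MuSC (214), 287 in macrophages (0) and 155 in glial cells (50), and without WT 1 it was 123 in MuSC. *Wnt4* in MuSC was at 42.5, 295 and 85.4 normalized CPM in WT and 34.6, 36.3 and 37.2 in Arom mice (adjusted p = 0.0946). *Fzd1* in mesothelial cells had a log2 fold change of -1.06 (adjusted p = 0.0580).

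Over all barcodes of a mouse, 13 of 44 members passed (29.5%), beside 23.6% of 15334 genes, 7 higher (beside 12.4% of genes) and 6 lower in Arom (beside 11.2%). The median log2 fold change was 0.30 over the members and 0.02 over all genes. In these sums fewer cells of a type and less RNA per cell cannot be told apart. *Rspo1* measured 28.8, 34.97 and 19.4 normalized CPM in WT and 52.1, 53.5 and 98.1 in Arom mice (log2 fold change 1.29, adjusted p = 0.0382, and 0.0808 with the replicate block). Its mesothelial source numbered 146, 173 and 68 cells in WT and 650, 1000 and 675 in Arom mice, and within mesothelial cells its log2 fold change was -0.48 (adjusted p = 0.311). *Wnt9a* was at 5.09, 4.81 and 4.34 in WT and 11.5, 13.4 and 8.58 in Arom mice (log2 fold change 1.23, adjusted p = 0.0179). For both, every Arom mouse was higher. *Wnt4* was at 12.6, 28.8 and 12.4 in WT and 48.6, 53.7 and 40.9 in Arom mice (log2 fold change 1.41, adjusted p = 0.0382). *Fzd2* was at 26.2, 17.6 and 22.8 in WT and 47.0, 56.3 and 33.2 in Arom mice (log2 fold change 1.04, adjusted p = 0.0292). Neither overlapped. *Lgr6*, *Rspo4* and *Wnt7b* were the other higher members, on listed zeros. With the ceiling, *Rspo4* (adjusted p = 0.547) and *Wnt7b* (adjusted p = 0.770) no longer passed. Among the lower members, *Fzd4* was at 37.9, 53.2 and 58.5 in WT and 22.1, 20.3 and 34.4 in Arom mice (log2 fold change -0.96). *Lrp5* was at 12.9, 16.8 and 17.9 in WT and 9.85, 6.95 and 10.9 in Arom mice (log2 fold change -0.78). *Rspo3* was at 3.60, 3.63 and 3.82 in WT and 1.84, 2.48 and 2.16 in Arom mice (log2 fold change -0.77). No mouse overlapped for these 3. *Fzd8* was at 16.7, 15.99 and 19.4 in WT and 10.0, 10.9 and 11.7 in Arom mice (log2 fold change -0.68). *Fzd5* was at 14.4, 16.3 and 20.8 in WT and 10.1, 11.2 and 11.5 in Arom mice (log2 fold change -0.66). *Fzd7* was at 9.33, 9.78 and 10.5 in WT and 6.09, 6.82 and 7.63 in Arom mice (log2 fold change -0.53). These 3 receptors were also lower in every Arom mouse. The genes *Fzd4*, *Fzd5* and *Lrp5* are highest in endothelial or lymphatic endothelial cells, and endothelial cells numbered 3652, 4552 and 3803 in WT and 2453, 2207 and 2499 in Arom mice. The count was 0 without WT 2, WT 3, Arom 1 or Arom 2, and 23 without Arom 3, with 1, 2, 0, 0 and 4877 of all genes in these fits beside 3612 with all mice. Within the stated limits without the upper limit on genes, *Fzd4* (adjusted p = 0.0555), *Lrp5* (0.0529), *Fzd7* (0.083) and *Rspo1* (0.0837) missed the threshold, and with all stated limits no gene passed.

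The genotype effects in fibroblast-like and endothelial cells were compared as an interaction with the mouse as a block. Of 41 members tested, 6 differed (14.6%), beside 7.12% of 14445 genes. The difference was above 0 for 2 members, beside 2.71% of genes, and below 0 for 4, beside 4.41%. The median difference was -0.34 over the members and 0.01 over all genes. The effect on *Wnt4* was 2.46 ± 0.21 (SE) higher on the log2 scale in fibroblast-like cells (adjusted p = 0.00422), and it passed in all 6 fits with a mouse left out. The difference was 0.82 within the stated limits (adjusted p = 0.277) and 0.18 without the Esr1-high and Mmp3-high groups (adjusted p = 0.622). In endothelial cells *Wnt4* was at 7.61, 10.2 and 9.13 normalized CPM in WT and 6.64, 7.70 and 7.62 in Arom mice, with overlap. Counts were 2 without WT 1, 1 without WT 2, 2 without WT 3, 1 without Arom 1 and 1 without Arom 2, with 496, 43, 171, 118 and 230 of all genes in these fits beside 1028 with all mice.

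**Figure D5:**
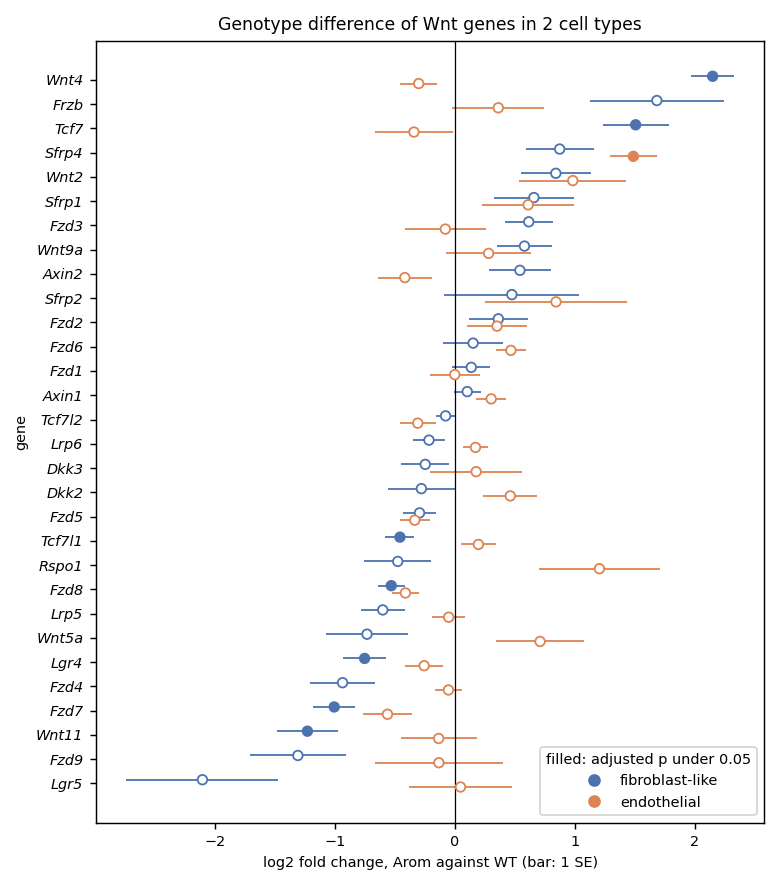
Log2 fold change of Arom against WT, with 1 SE as a bar, for the 30 members tested in both fibroblast-like (blue) and endothelial cells (orange). Filled points have an adjusted p under 0.05. *Wnt4* is at 2.15 in fibroblast-like and -0.30 in endothelial cells.

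A list of 67 further Wnt pathway genes was counted in the same fits. In fibroblast-like cells 13 of 60 tested passed (21.7%), beside 13.3% of all genes. Higher in Arom were *Cthrc1* (log2 fold change 3.56), which encodes a secreted matrix protein, *Wisp1* (1.00), *Kremen1* (0.60), a Dkk receptor, *Cd44* (0.56) and *Notum*. *Notum* passed on listed zeros, being listed at 0 in every WT mouse. Its Arom levels over all barcodes were 0.680, 0.656 and 0.334 normalized CPM, beside WT ceilings of 0.394, 0.439 and 0.600 CPM. With the whole-library ceilings in UMIs set in fibroblast-like cells, its log2 fold change there was -0.89 (adjusted p = 0.165). Lower were *Sostdc1* (-2.13), *Gpc3* (-2.08), *Myc* (-0.95), *Nkd1* (-0.84), *Ccnd1* (-0.77), *Znrf3* (-0.70), *Gsk3a* (-0.61) and *Dact3* (-0.58). *Cthrc1* measured 19.9, 20.0 and 12.9 normalized CPM in WT and 342, 239 and 42.3 in Arom mice, so Arom 3 lay nearest to WT. The count was 0 without any 1 of the mice other than Arom 3, and 24 without Arom 3. In endothelial cells 4 of 56 passed (7.14%), beside 7.7% of all genes: *Wisp2*, *Cthrc1* and *Ptk7* higher and *Bcl9* lower. *Cthrc1* and *Wisp2* averaged 9.07 and 2.22 CPM in endothelial cells, beside 111 and 209 CPM in fibroblast-like cells. *Col1a1*, a collagen gene of fibroblasts, was at 37.1, 37.8 and 45.2 CPM in WT and 107.6, 66.4 and 89.1 CPM in Arom endothelial cells, and the part of free fibroblast RNA in these calls was not tested. The list's endothelial count was 8 of 49 tested at a resolution of 0.4, 8 of 50 at 1.2 and 8 of 49 without the Rgs5-positive cluster. It was 2 of 41 within the stated limits and 2 of 54 without the upper limit on genes. The numbers of all genes in these fits are not given here, so the counts are not results about the list. With the replicate block 11 passed in endothelial cells, beside 17.9% of all genes.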

How the data were processed

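LAM cells of 3 WT and 3 Arom mice were sequenced with the 10x Genomics 3′ protocol, and the submitters' processing notes name Cell Ranger 3.0.2 and mm10. The authors deposited raw UMI counts, not normalized, and every value is a whole number. Every deposited barcode was clustered and entered the sums over all barcodes. Unnamed clusters of 1203, 393 and 27 cells entered no cell type. Fibroblast-like sub-clusters of 829 and 78 cells, with markers of other types among their top genes, were set aside. The limits given in the methods (200 to 2500 genes, 1000 UMIs or more, and mitochondrial UMIs up to 5%) were an alternative. Cells were clustered without the 44 members and *CYP19A1* (scanpy 1.11.5, leidenalg 0.10.2, 2000 variable genes, 30 principal components, 20 neighbours, resolution 0.8) and named from marker lists. Doublets were marked with Scrublet and kept. Sums per mouse were tested with edgeR 4.0.16 (R 4.3.3) by the quasi-likelihood test, with TMM, filterByExpr and Benjamini-Hochberg adjustment, wherever every mouse had 20 cells or more. Levels needed 10 cells. Steps were tested on simulated data. DESeq2 1.42.0 and limma 3.58.1 were alternatives. The replicate is the mouse. The 3 harvest dates each held 1 WT and 1 Arom littermate, and which numbers share a date is not given in the sources used here. Same-numbered mice deviated together, with every correlation over 0.1, in 2 of 12 comparisons, endothelial cells (0.17 to 0.34) and macrophages (0.14 to 0.27). Counts set the precision of low members. Each UMI is 1 molecule, but cells of a mouse are not independent.

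The members and lists were chosen with earlier results of these data known. Named were members past the threshold in any comparison, the 2 highest of each role in fibroblast-like cells and, in another type, the highest of a role at 20 CPM or more and at 3 times the fibroblast-like level.
Other members given with values, such as *Frzb*, *Sfrp1*, *Lgr5* and *Axin2*, were chosen after their values were seen.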

Additional observations from a re-analysis of the deposited data

Results flagged for a closer look

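The genotype effect differed between fibroblast-like and endothelial cells for 6 members by the interaction test of edgeR (fibroblast-like minus endothelial, log2). *Wnt4* differed by 2.46 (adjusted p = 0.00422), with effects of 2.15 in fibroblast-like and -0.30 in endothelial cells, and limma voom gave an adjusted p of 0.0015. *Tcf7* differed by 1.87 (adjusted p = 0.0305), with effects of 1.51 and -0.34, and limma voom gave 0.0206. *Tcf7l1* differed by -0.66 (adjusted p = 0.0289), with effects of -0.46 and 0.19, and limma voom gave 0.0349. *Rspo1* differed by -1.59 (adjusted p = 0.0389), *Rspo3* by -2.15 (adjusted p = 0.0432) and *Wnt5a* by -1.52 (adjusted p = 0.0247), and limma voom gave 0.356, 0.179 and 0.445 for them. Without the Esr1-high and Mmp3-high groups *Wnt4* differed by 0.18 (adjusted p = 0.622), *Tcf7* by 1.26 (0.211), *Tcf7l1* by -0.38 (0.151), *Rspo1* by -1.87 (0.0565) and *Rspo3* by -1.35 (0.197). *Tcf7* also missed at resolutions of 0.4 (0.0973) and 1.2 (0.107), without the Rgs5-positive endothelial cluster (0.108) and within the stated limits without the upper limit on genes (0.0609), and *Rspo1* missed in the same 4 fits (0.0741, 0.0747, 0.0632 and 0.0567). *Rspo3* missed at those resolutions with 0.0582 and 0.0529, and within the stated limits without the upper limit on genes with 0.356 (-1.51). *Rspo1* and *Rspo3* passed in 0 of 6 fits with a mouse left out, *Tcf7* and *Wnt5a* in 1 (without Arom 3), *Tcf7l1* in 2 (without WT 3 or Arom 3) and *Wnt4* in all 6. In endothelial cells *Rspo1* was at 0.364 to 0.645 normalized CPM in WT and 0.592 to 2.03 in Arom mice, *Wnt5a* at 0.493 to 0.645 and 0.678 to 1.18, and *Rspo3* was too low to be tested alone.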

How the results depend on the processing

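Counts are members past the threshold. With a mouse left out they ranged from 0 to 25 in fibroblast-like cells, 1 to 2 in endothelial cells, 0 to 1 in smooth muscle cells, 0 to 8 in mesothelial cells, 0 to 2 in MuSC, 0 to 2 in macrophages, 0 to 1 in glial cells, 2 to 8 in the FAP, 1 to 11 in the Esr1-high, 0 to 4 in the tenocyte and 0 to 10 in the Dmkn-high group, 0 to 23 over all barcodes, 1 to 8 for the interaction and 0 to 24 for the 67 pathway genes. Within the stated limits 0 passed in fibroblast-like cells (with 1 gene in all), the FAP and tenocyte groups, all barcodes, the interaction and the pathway list (with 48, 7, 0 and 19 genes in all in the first 4, beside 558, 384, 3612 and 1028). Mesothelial cells and the Esr1-high and Dmkn-high groups then had 8, 4 and 7 cells in a mouse and were not run. Without the upper limit on genes the counts were 3 in endothelial cells and 1 in the tenocyte group. DESeq2 called 17 in fibroblast-like cells (2923 genes beside 1861), 2 in endothelial cells, 4 in mesothelial cells (650 genes beside 46), 8 in the tenocyte group and 22 over all barcodes, and limma voom 3 for the interaction. Without a filter on low counts 2 passed in mesothelial cells (150 genes), 1 in MuSC (532 genes beside 214), 7 in the tenocyte and 6 in the Dmkn-high group (564 genes beside 213). The replicate block gave 5 in endothelial cells (2313 genes beside 993), 3 in mesothelial cells (384 genes), 1 in MuSC (546), 1 in glial cells (166 beside 50), 9 in the FAP (884) and 9 in the tenocyte group (907). With doublets left out 1 passed in mesothelial cells (162 genes). At resolution 0.4 the counts were 2 in endothelial cells, 1 in MuSC, 10 in the FAP, 0 in the tenocyte and 1 in the Dmkn-high group, and at resolution 1.2 they were 3 in endothelial cells (1723 genes) and 0 in the tenocyte group (62 genes). At resolution 0.4 the FAP group held 1994, 1861 and 1146 cells in WT and 1437, 1461 and 2050 in Arom mice. Where no number of all genes stands beside a count in this section, the count is not a result about the members. Without the Esr1-high and Mmp3-high groups 6 passed in fibroblast-like cells (630 genes), 1 for the interaction (410 genes) and 4 of the pathway list. Alternatives chosen after seeing the data were the column order of the table in place of clusters (4 in endothelial, 1 in smooth muscle cells with 341 genes beside 77), endothelial cells without the Rgs5-positive cluster (2), genes listed at 0 left out (2 in endothelial cells) and listed zeros set at the ceiling. Log2 fold changes that turned were *Rspo4* (-0.61) in fibroblast-like cells and *Wnt7b* (-0.22) over all barcodes with the ceiling, *Wnt4* without both groups (-0.14) in fibroblast-like cells, and within the stated limits *Wnt6* in fibroblast-like cells (0.88), *Wnt4* over all barcodes (-0.13) and *Rspo3* for the interaction (0.30). Of the other fold changes under an alternative, 537 kept direction and side of the threshold and 279 kept direction but missed it. The causes were not tested. In fibroblast-like cells the number of all genes past the threshold ranged from 1 to 4175, and the low counts of *Tcf7*, *Fzd9* and *Rspo4* limit their precision.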
